A study of Mus musculus with 6 samples.

Results

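The genes described here encode the proteins of the cytosolic ribosome. Members were the protein-coding genes of the NCBI Build 37 (mm9) annotation with a RefSeq transcript and a symbol of the form Rpl or Rps followed by a number, with an optional letter, x or l, together with Rplp0, Rplp1, Rplp2 and Rpsa. Pseudogenes and the S6 kinases were left out. This gave 81 members, 49 of the large and 32 of the small subunit, of 20565 protein-coding genes and of 22921 genes with a RefSeq transcript in all. The members lay on 19 chromosomes, and 4 of them (Rpl10, Rpl36a, Rpl39 and Rps4x) were on the X chromosome.

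Chromatin was from the same kind of culture in every library. Primary myoblasts of the limb muscle of wild type C57BL/6 fetuses at E18.5 had been kept for 17 passages and then differentiated for 48 h in medium with 2% horse serum, so that they fused into myotubes. There were 6 libraries in 3 groups of 2: chromatin immunoprecipitated (ChIP) with a rabbit polyclonal antibody to the transcription factor Sox6, ChIP with a mouse monoclonal antibody to the repeats of the C-terminal domain of RNA polymerase II (Pol II), and input DNA that was not immunoprecipitated. Every library was amplified by 18 cycles of PCR. Each comparison was between a ChIP and the input.

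A ribosome is built from ribosomal RNAs and, with few exceptions, a single copy of each ribosomal protein, and a growing cell has to make all of these proteins in step. Their mRNAs are known for a terminal oligopyrimidine (TOP) tract, a run of C and T that begins at the first base of the transcript and through which translation is tuned to nutrients by the mTOR pathway. The genes are short and intron-bearing, many carry small nucleolar RNAs (snoRNAs) inside their introns, and their abundant mRNAs have left many processed pseudogenes in the genome, so that reads from exons often match more than one place. In skeletal muscle the number of ribosomes is known to rise with muscle growth.

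The members were short. Their median length was 3137 bp (range 849 to 14379 bp) against 16466 bp for all protein-coding genes, and their median number of exons was 5 against 7. Of the members, 30 held at least 1 annotated snoRNA and together they held 58 of the 1552 snoRNA genes of the annotation, with 5 in Rpl4 and 4 each in Rpl13a and Rpl7a. The start of another protein-coding gene lay within 1 kb of the start of 13 members, in each case on the opposite strand, as for Rps27 with Rab13 and Rpl15 with Nkiras1.

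Promoter sequences of 61 members were in the RefSeq table (build GRCm38.p6) and were placed on NCBI Build 37 by exact match. The following starts are shown because they carry the oligopyrimidine tract that is the best known feature of these genes. Each line runs 5′ to 3′ from 60 bases before the RefSeq start to its first 20 bases, and capitals mark the longest run of C and T near the start. The positions are Rpl7a at chr2:26766267-26766346 (forward strand), Rpl27a at chr7:116662649-116662728 (forward strand), Rpl15 at chr14:19103481-19103560 (reverse strand), Rps18 at chr17:34092591-34092670 (reverse strand), Rps6 at chr4:86503252-86503331 (reverse strand) and Rps27 at chr3:90017551-90017630 (reverse strand).

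Rpl7a: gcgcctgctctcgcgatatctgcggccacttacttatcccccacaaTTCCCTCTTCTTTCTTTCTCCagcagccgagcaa
Rpl27a: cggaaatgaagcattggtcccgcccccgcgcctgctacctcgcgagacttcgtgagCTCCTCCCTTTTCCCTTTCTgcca
Rpl15: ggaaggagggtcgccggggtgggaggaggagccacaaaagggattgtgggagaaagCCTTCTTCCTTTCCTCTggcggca
Rps18: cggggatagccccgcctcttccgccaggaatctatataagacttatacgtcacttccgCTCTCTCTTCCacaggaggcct
Rps6: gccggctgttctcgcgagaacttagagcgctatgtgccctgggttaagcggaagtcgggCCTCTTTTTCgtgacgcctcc
Rps27: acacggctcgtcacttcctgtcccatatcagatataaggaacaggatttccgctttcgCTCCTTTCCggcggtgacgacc

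In these 6 members the run covered the first base of the transcript. It was 21 bases long in Rpl7a, 20 in Rpl27a, 17 in Rpl15, 11 in Rps18, 10 in Rps6 and 9 in Rps27. Paralogs that the results below turn on are shown for comparison, with Rps27l at chr9:66793833-66793912 (forward strand), Rpl39 at chrX:34625198-34625277 (reverse strand), Rpl39l at chr16:10170261-10170340 (forward strand), Rpl3l at chr17:24864711-24864790 (forward strand) and Rpl10l at chr12:67385369-67385448 (reverse strand).

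Rps27l: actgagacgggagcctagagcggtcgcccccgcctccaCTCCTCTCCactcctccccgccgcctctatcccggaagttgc
Rpl39: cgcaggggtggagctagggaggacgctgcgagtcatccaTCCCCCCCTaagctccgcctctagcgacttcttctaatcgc
Rpl39l: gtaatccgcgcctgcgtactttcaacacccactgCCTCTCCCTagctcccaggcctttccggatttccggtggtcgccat
Rpl3l: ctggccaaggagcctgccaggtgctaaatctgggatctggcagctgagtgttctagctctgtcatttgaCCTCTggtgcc
Rpl10l: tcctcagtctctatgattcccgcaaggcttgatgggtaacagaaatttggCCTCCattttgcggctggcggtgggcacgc

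None of these 5 starts had its longest run over the first base, although in Rpl39 a shorter run of 5 bases covered it. The run was 5 bases long in Rpl3l and Rpl10l and 9 bases in Rps27l, Rpl39 and Rpl39l, and it lay 13 to 21 bases before the start in Rpl39 and 18 to 26 bases before it in Rpl39l. Over the 61 members with a promoter, 18 (29.5%) had a run of at least 5 pyrimidines over the start base against 8.60% of 16439 protein-coding promoters, and 15 (24.6%) had a run of at least 8 against 3.55%. Within 30 bases of the start, a run of at least 8 was found in 41 members (67.2%) against 26.8% of all promoters, and one of at least 10 in 30 members (49.2%) against 13.6%. The limit of 30 bases was chosen after the data had been seen. At the starts of the GENCODE models the run of at least 5 was found in 10 of 81 members (12.3%) against 9.0% of all protein-coding genes. In the same 61 members it was found in 8 (13.1%) at the GENCODE starts, so the share depended on which annotation set the first base.

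Further motifs were searched on both strands of the 300 bases from 250 before to 50 after the start. None of the 6 strings of letters contains another whole, but the end of the ETS string can be the beginning of the YY1 string. CCGGAAG, the core of ETS factor sites, was found in 24 of the 61 members (39.3%) against 12.3% of all promoters. AAGATGG, the core of YY1 sites, was found in 8 (13.1%) against 6.49%, and GGGCGG, the Sp1 core, in 36 (59.0%) against 48.3%. TATAAA was found in 5 (8.20%) against 12.9%, and either of the Sox motifs ACAATG and ACAAAG in 13 (21.3%) against 25.3%. Members without an entry in the table included Rpl32, Rpl3, Rps20, Rpl8, Rps27a, Rpl36, Rpl17, Rps14, Rpl30, Rpl23a, Rpl21, Rplp1, Rpl29, Rps29 and Rpl7.

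The Sox6 libraries held 2985437 and 1468604 mapped reads, the Pol II libraries 1538757 and 2762155, and the input libraries 21973495 and 24249850. Reads were 39 bases long, or 36 in input replicate 1, and between 2.96% and 7.88% of them repeated a position already seen. Markers of muscle were occupied by Pol II: 12 of 12 myotube genes passed the test at the start, whereas none of 6 fibroblast, none of 4 endothelial, 1 of 5 blood and 1 of 6 neuron or Schwann cell markers tested did so. No keratinocyte marker had enough reads to be tested at the start. The blood marker that passed at the start was Cd68, a macrophage gene, at a mean of 7.43 RPKM, and its part in the results was not tested. In the gene bodies 12 of 12 myotube, 2 of 5 blood and 1 of 6 neuron or Schwann cell markers tested were higher in Pol II. No fibroblast, endothelial or keratinocyte marker was higher there. Median Pol II levels over the gene, in reads scaled to length and to mapped reads (RPKM), were 31.2 for the myotube genes and 0.202, 0.149, 0.268 and 0.258 for the fibroblast, endothelial, blood and neuron lists. The methods name independent ChIP experiments, but no source used here says that the 2 libraries of a group came from separate cultures. The p-values therefore measure only the spread between these libraries, which may be technical. In limma-voom this spread is estimated with all genes tested. A small p-value thus does not by itself show that the libraries of that gene agreed.

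Pol II was found over almost all ribosomal protein genes. Levels are given in RPKM over the whole gene, which scales reads to length but includes those near the start. Such reads weigh more in a short gene, and the part of this in the levels was not tested. The median level over the 81 members was 6.06 RPKM in Pol II replicate 1 and 5.83 RPKM in replicate 2, against 0.464 and 0.448 RPKM for all protein-coding genes. In the input the members had medians of 0.603 and 0.689 RPKM and all protein-coding genes 0.463 and 0.478 RPKM. Both Pol II libraries thus stood apart from both inputs at the median member and not at the median protein-coding gene. In these bulk cultures, more polymerase per cell and more cells with polymerase cannot be told apart. In all, the members took 0.182% and 0.183% of the Pol II reads against 0.0183% and 0.0198% of the input reads.

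The members ranked high among the protein-coding genes. By the mean of both Pol II libraries, 77 of 81 members lay above the 90th percentile, 72 above the 95th and 12 above the 99th. Of the members, 9 exceeded 10 RPKM, 69 lay between 2 and 10 RPKM and 3 were under 1 RPKM. Their quartiles were 4.99 and 7.52 RPKM. The subunits had similar medians, 5.86 RPKM for the large and 5.75 RPKM for the small subunit. The 4 X-linked members ranged from 3.86 to 10.5 RPKM. For scale, Actb, the cytoplasmic actin gene, stood at 26.4 and 35.8 RPKM.

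**Figure D1:**
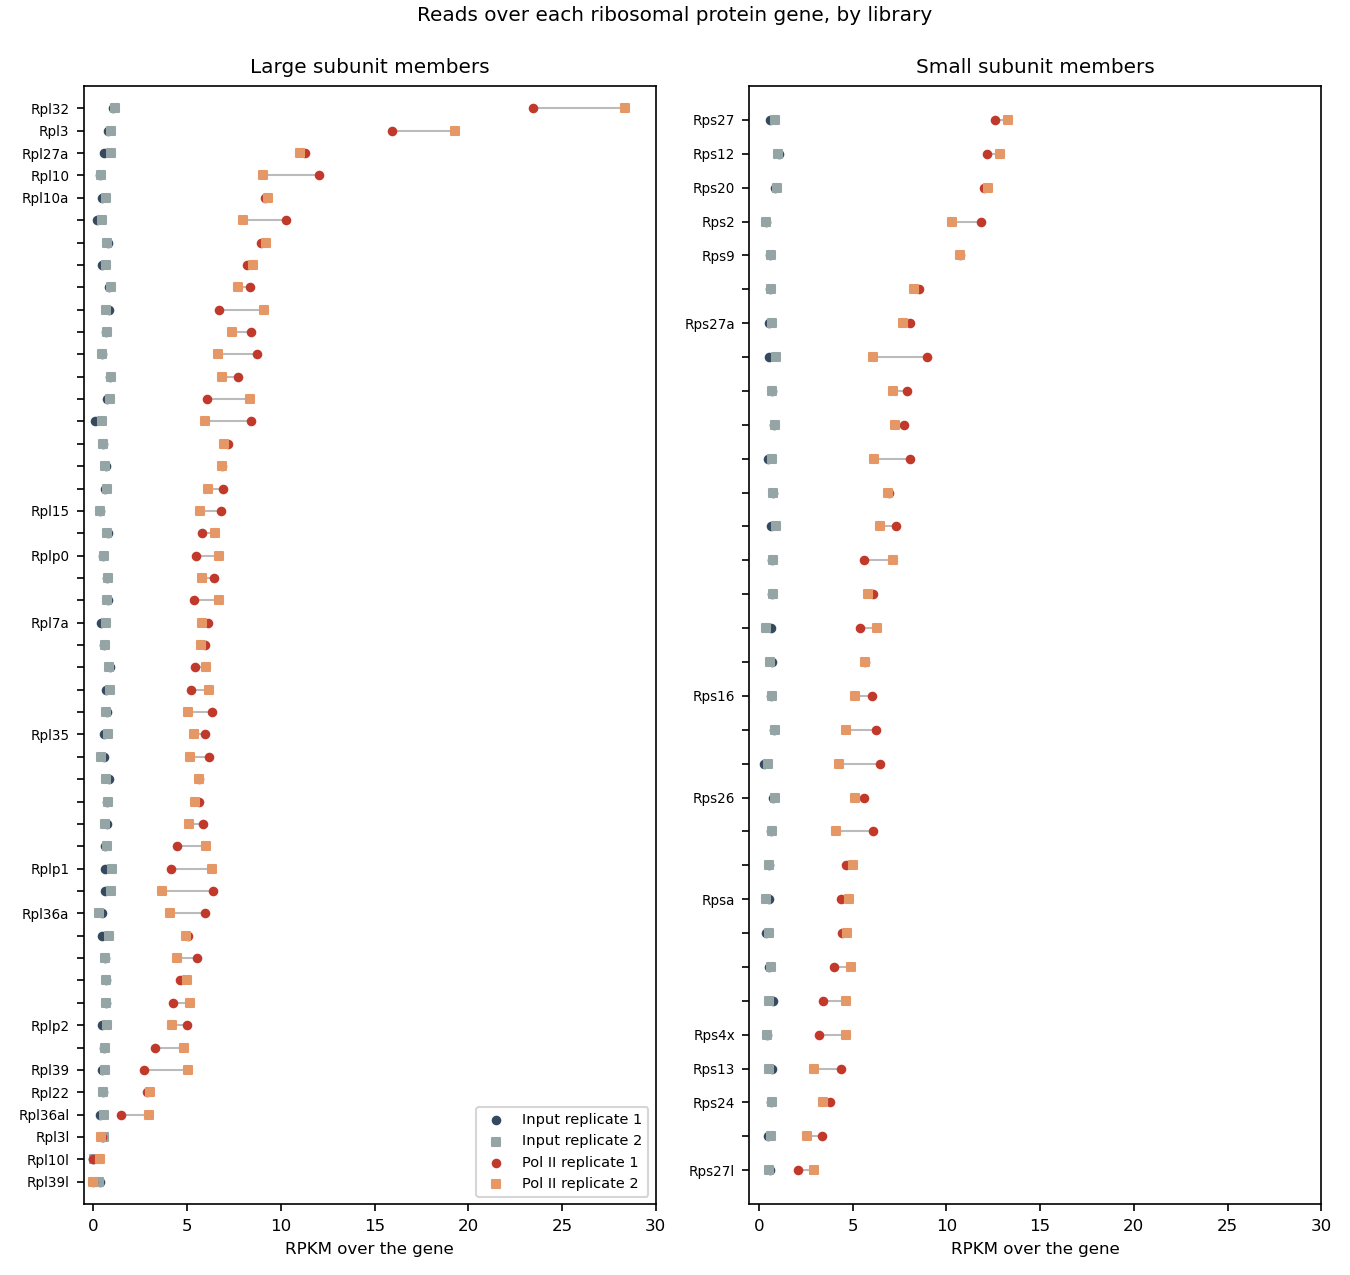
RPKM over each of the 49 large subunit and 32 small subunit members, one point for each Pol II and input library, with a grey line joining the Pol II libraries and names for some members. Rpl32 and Rpl3 stand highest, and the Pol II points of Rpl3l, Rpl10l and Rpl39l lie under 1 RPKM.

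Rpl32, a protein of the large subunit (chr6:115755523-115758765), had the highest level of the members, with 23.4 RPKM in Pol II replicate 1 and 28.4 RPKM in replicate 2 against 1.07 and 1.14 RPKM in the input. Rpl3 (chr15:79908211-79913836), which lies close to the peptidyl transferase centre, followed with 15.9 and 19.3 RPKM against 0.809 and 0.967 RPKM. The lower library of Rpl32 exceeded the higher one of Rpl3, and the lower one of Rpl3 exceeded the higher one of Rps27. Next among large subunit genes were Rpl27a with 11.3 and 11 RPKM, Rpl10 with 12 and 9.04 RPKM, and Rpl10a with 9.13 and 9.33 RPKM. Lowest were Rpl22, with 2.85 and 3.04 RPKM against 0.510 and 0.533 RPKM in the input, and 4 paralogs described below.

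In the small subunit the highest levels were those of Rps27 (chr3:90016593-90017573) with 12.6 and 13.3 RPKM, Rps12 with 12.2 and 12.9 RPKM, Rps20 with 12 and 12.2 RPKM, Rps2 with 11.9 and 10.3 RPKM and Rps9 with 10.7 RPKM in both. Among those at the low end were Rps13 with 4.36 and 2.97 RPKM, Rps24 with 3.8 and 3.44 RPKM and Rps27l with 2.09 and 2.96 RPKM. These low levels were still above the input, which was between 0.522 and 0.694 RPKM at those 3 genes. Rps4x, an X-linked gene also near the low end, had 3.21 and 4.63 RPKM.

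Most neighbours in the order of levels did not differ beyond the spread of the libraries. Of the 80 pairs of neighbours 71 had Pol II libraries that overlapped, and the 9 that did not included Rpl32 over Rpl3, Rpl3 over Rps27 and Rpl36al over Rpl3l. Between the libraries, 74 of the 79 members with reads in both libraries had levels within 1.5-fold. The ranking was similar in both libraries, with a Spearman correlation of 0.81 across the 81 members, which are not independent replicates and share the same libraries. With length counted in bases that begin a 36-base word found once in the genome, the median rose to 6.81 RPKM.

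The proteins of the ribosomal stalk, which recruits the translation factors, are Rplp0, Rplp1 and Rplp2. Pol II stood at 5.49 and 6.71 RPKM over Rplp0, at 4.14 and 6.35 RPKM over Rplp1 and at 5.0 and 4.18 RPKM over Rplp2. Rpsa, the small subunit protein also known as the laminin receptor, had 4.38 and 4.80 RPKM. In the order of the 81 members they stood at places 35, 56, 65 and 66. Of the genes that complete the ribosome under other symbols, Fau had 3.20 and 2.90 RPKM, below the members' lower quartile of 4.99 RPKM. Gnb2l1 (RACK1) had 6.42 and 7.15 RPKM, and both genes passed the Pol II test at the start. Rpl22l1 and Rpl7l1, related genes outside the naming rule, had means of 4.05 and 4.52 RPKM.

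The members that host snoRNAs had a median of 6.5 RPKM (n = 30) and those without one 5.65 RPKM (n = 51), with quartiles of 5.56 to 8.93 and 4.75 to 7.05 RPKM. The groups overlapped over most of their range and no test was made.

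Paralogs of ribosomal proteins differed widely. Rpl3l is the striated muscle counterpart of Rpl3, and Rpl10l and Rpl39l are known from testis. Over Rpl3l (chr17:24864774-24873094) Pol II stood at 0.469 and 0.435 RPKM against 0.536 and 0.595 RPKM in the input, so the Pol II libraries were below both inputs. Over Rpl39l (chr16:10170321-10175004) there was no Pol II read in either library, which allows up to 0.416 and 0.232 RPKM (3 reads per library, counting error only), against 0.330 and 0.308 RPKM in the input, and its partner Rpl39 had 2.70 and 5.02 RPKM. Over Rpl10l, a gene of 1 exon, 1 Pol II read and 1 input read were found in all, against 12 and 9.04 RPKM of Pol II over Rpl10. Of the bases of Rpl10l 61.4% began a unique word. With so few reads even in the input, no level of Pol II can be read from it.

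The other paralogs passed the Pol II test at the start, but Rpl36al did not pass in the body. Rpl36al (chr12:70283728-70285070) had 1.45 and 2.97 RPKM against 5.95 and 4.07 RPKM for Rpl36a. Rps27l, known as a target of p53, had 2.09 and 2.96 RPKM against 12.6 and 13.3 RPKM for Rps27. At the start, the log2 ratio to input over the alternative fits ranged from 2.29 to 4.33 for Rps27l. For Rps27 it ranged from 2.36 to 4.82. These ranges are spreads over settings and not errors of the ratios. They cannot decide whether the genes differ at the start. In RPKM over the gene, Rpl3l, Rpl39l, Rpl36al and Rps27l lay below their partners in both Pol II libraries. The order was not general, since Rpl22l1, which is outside the naming rule, had 5.09 and 3.02 RPKM against 2.85 and 3.04 RPKM for Rpl22.

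**Figure D2:**
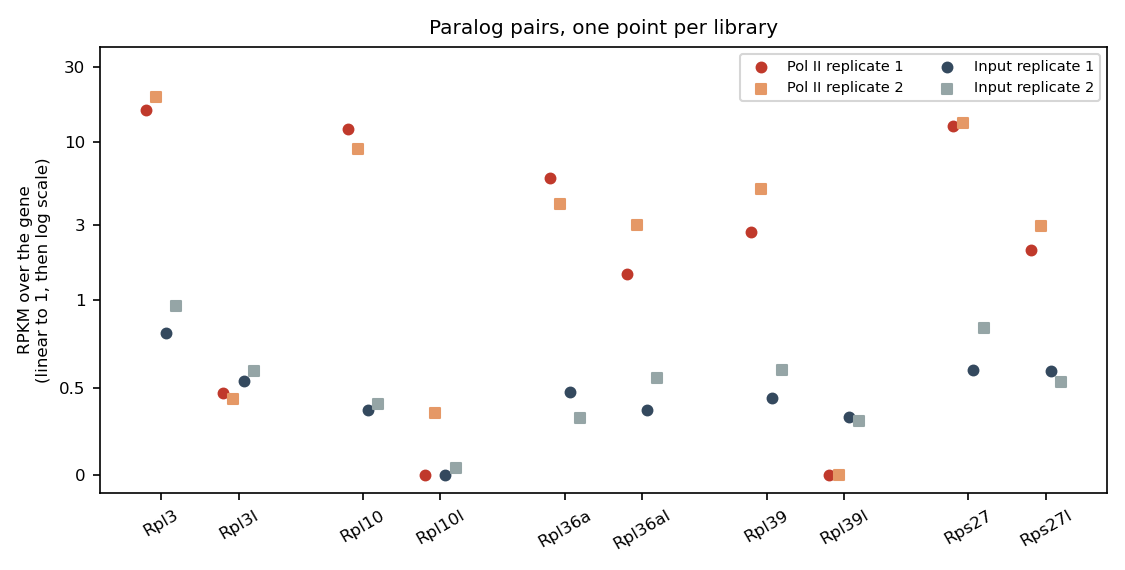
RPKM over both genes of 5 paralog pairs in each Pol II and input library, on an axis that is linear up to 1 and logarithmic above it. Pol II at Rpl3l and Rpl39l lies below the input, whereas at Rpl36al and Rps27l it lies above the input and below the partner gene.

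At the start sites, Pol II was compared with the input in a window that reached 500 bp to either side of the annotated start. Reads scaled to the mapped reads of the library (RPM) had a median over the members of 7.15 in Pol II replicate 1 and 6.52 in replicate 2, against 0.501 and 0.660 in the input. In 79 of 81 members the lower Pol II library exceeded the higher input library, which held for 43.7% of all genes. With limma-voom and Benjamini-Hochberg adjustment, 78 of the 80 members tested were higher in Pol II than in input and none was lower, against 45.5% of the 18666 genes tested higher and 1.09% lower. All 32 small subunit members and 46 of 48 large subunit members tested passed. With no filter on low counts, 78 of 81 members (96.3%) were higher at the start, against 45.1% of all genes, and 78 of 81 in the body, against 37.7%. The median log2 ratio was 3.53 for the members and 1.42 for all genes tested. The ratio of all genes depends on the scaling: with libraries centred on the median window, the split of all genes called was 3404 higher and 4299 lower in place of 8492 and 203, the median of all genes moved to -0.17, and 71 of the 78 members remained higher. The members' median lay 2.11 above that of all genes in the main scaling and 2.16 above it with centring. With at least 40 reads required in a window, which left 70 members and 5156 genes, the gap was 0.95, since the median of all genes was then 2.58 and that of the members 3.52.

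Rps2, at the entry of the mRNA channel, had the largest ratio at the start. It had 25.3 and 21.7 RPM in Pol II against 0.273 and 0.536 RPM in the input, a log2 ratio of 5.80 (SE 0.46, adjusted p = 4.31e-34, limma-voom). Its start window held 39 and 60 Pol II reads. The ratio was called in 19 of 20 alternatives, the exception being the longest of all GENCODE models of the gene, whose start lies elsewhere and whose log2 ratio was 1.11. Rpl15 followed with 14.3 and 12.3 RPM against 0.182 and 0.619 RPM (log2 5.14, SE 0.51, adjusted p = 1.02e-21). Rpl3 had the highest reads of all members, with 29.2 and 29.0 RPM against 1.18 and 0.825 RPM (log2 4.87, SE 0.31, adjusted p = 2.95e-53).

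The smallest ratios at the start were those of Rpl39l, Rpl35 and Rpl3l. Rpl39l had 0.650 and 0 RPM in Pol II against 0.228 and 0.165 RPM in the input (log2 1.0, adjusted p = 0.325), and Rpl3l had 0.650 and 1.09 RPM against 0.455 and 0.289 RPM (log2 1.52, adjusted p = 0.0903). Neither passed, although Rpl3l was called higher in 5 of 19 alternatives (adjusted p from 0.00787 to 0.919) and Rpl39l in 2 of 14 (0.0100 to 0.914). The window of Rpl39l reached the minimum number of reads for a test only through its Pol II read. Its ratio and its calls are therefore given as a description. The start of Rpl10l had too few reads to be tested. Rpl35 had 4.55 and 1.45 RPM against 0.865 and 0.784 RPM (log2 1.5, SE 0.62, adjusted p = 0.0337), and 7 of 20 alternatives did not keep this call. The annotated start of Rpl35 lay 493 bp from its RefSeq start, so that the window covered only part of the RefSeq promoter. The part of this in its ratio was not tested. The level over its gene was 5.94 and 5.37 RPKM. For 57 of the 61 members with both starts known the distance was at most 100 bp.

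The 13 members with the start of another gene within 1 kb all passed, with a median log2 ratio of 3.54. Among the other members, 65 of 67 tested passed, with a median of 3.52. Pol II peaks that the authors called lay over the start window of 50 of 81 members in both replicates (61.7%, exact 95% interval 50.3 to 72.3%), against 5.74% of protein-coding genes. In replicate 1 alone the count was 55 (67.9%) against 7.76% of protein-coding genes, and in replicate 2 it was 64 (79.0%) against 11.9%. Anywhere in the gene, 65 members (80.2%) had a peak in both replicates against 10.5% of protein-coding genes.

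Around the start, in bins of 100 bp, Pol II rose from means over the members of 0.0963 and 0.139 RPM in the bin centred at -1050 bp, where the input was 0.0663 and 0.0799 RPM, to a maximum of 1.57 and 1.46 RPM in the first bin of the gene. All protein-coding genes had means of 0.225 and 0.216 RPM in that bin. The input of the members fell across the start, from 0.0792 and 0.0957 RPM in the bin centred at -250 bp to 0.0264 and 0.0509 RPM in the bin centred at 250 bp. The fall was deeper in input replicate 1, the library of shorter reads, and its part in the ratios was not tested. In the 500 bp upstream the summed Pol II reads were 8.41 and 6.90 times the input of the same number, and in the 500 bp downstream they were 29.3 and 18.3 times it.

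**Figure D3:**
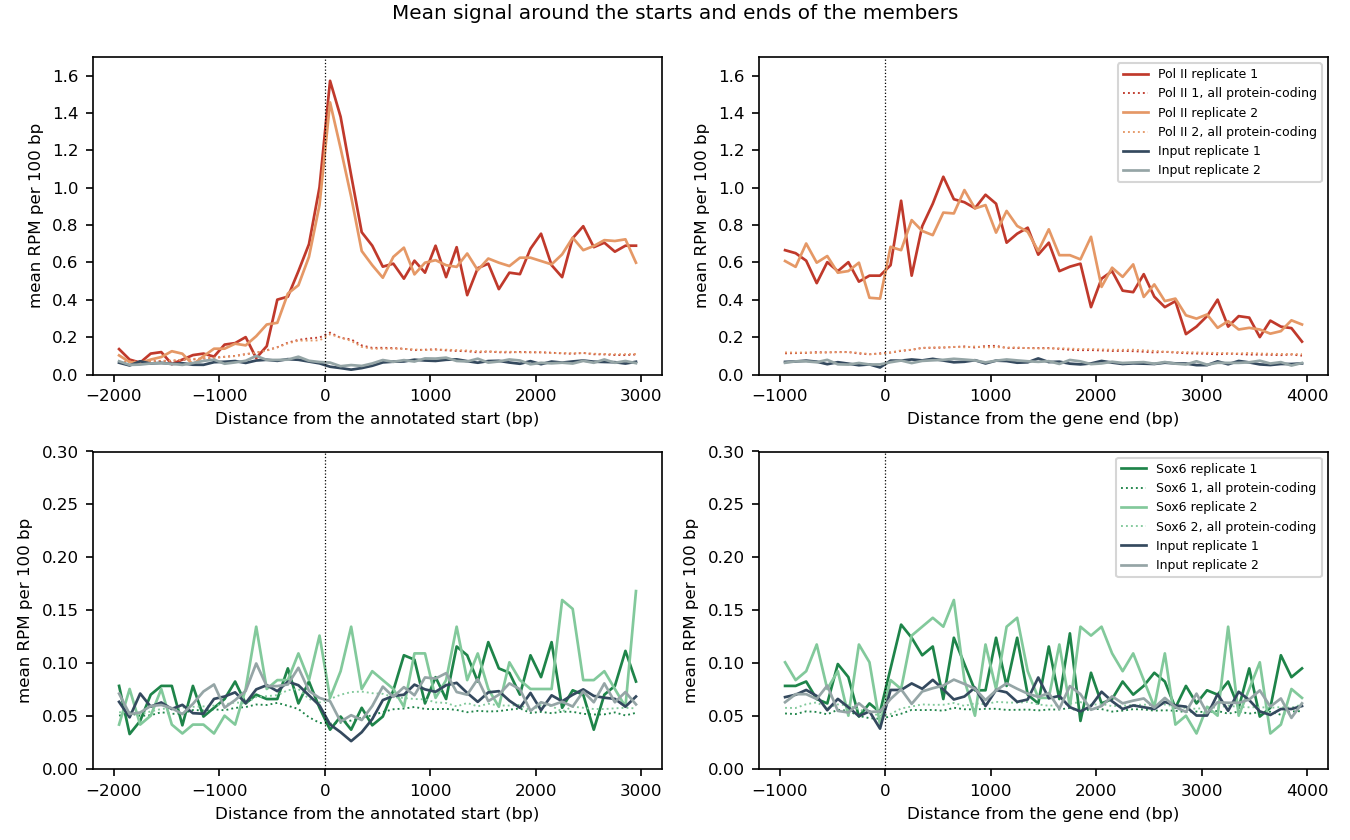
Mean RPM per 100-bp bin around the annotated starts (left) and ends (right) of the 81 members, for Pol II with input (top) and Sox6 with input (bottom, on a smaller scale), with dotted lines for all protein-coding genes. Pol II peaks at 1.57 and 1.46 just past the start and rises again past the end. In the first bin of the gene Sox6 stands at 0.0372 and 0.0673, against 0.0421 and 0.0642 in the input. The highest Sox6 bins are 0.168, centred 2950 bp past the start, and 0.160, centred 650 bp past the end. Both are in replicate 2, on 20 and 19 reads. Input bins, which hold more reads, reach at most 0.0998.

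In the gene bodies, from 500 bp past the start to the end of the gene, 77 of the 80 members tested were higher in Pol II than in input and 1 was lower, against 37.3% and 24.1% of the 20123 genes tested. The median log2 ratio was 2.85 for the members and 0.12 for all genes. Here too the split of all genes depends on the scaling, with 7512 higher and 4854 lower in the main fit, 5923 and 6454 with centring on the median window, and 9499 and 2377 with reads outside peaks as the library size, and the count of members stayed at 77 in both. Summed over the members, Pol II reads in the bodies were 8.22 times (95% interval 7.79 to 8.68) and 8.15 times (7.80 to 8.51) the input of the same number, whereas for the other protein-coding genes they were 1.42 and 1.48 times it. The intervals cover counting error only.

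The body of the short gene Rpl36 held 5 and 3 Pol II reads against 1 input read in each library. These are just the 10 reads that a window needed, so it was tested only through its Pol II reads and its ratio (log2 4.92, SE 0.81) is given as a description. Rpl32 had the next ratio, with 110 and 240 Pol II reads against 73 and 86 input reads (log2 4.55, SE 0.18, adjusted p = 1.65e-17). At the other end, Rpl39l was the member called lower (adjusted p = 0.00268, limma-voom), with no Pol II read against 31 and 33 input reads, or 0.337 and 0.325 RPKM. A count of 0 allows up to 0.466 RPKM in Pol II replicate 1 and 0.260 RPKM in replicate 2, and only the second limit lies below the input. Without Pol II replicate 2 the gene no longer passed. Rpl3l (log2 -0.49, adjusted p = 0.334) and Rpl36al (log2 0.97, adjusted p = 0.291) did not pass. Rpl36al had no body read in Pol II replicate 1 and 4 in replicate 2, and its ratio was -0.34 without replicate 2.

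The density of Pol II at the start was set against that in the body. Among the 77 members called higher both at the start and in the body, the start had 1.44 times the density of the body (median, quartiles 1.07 and 2.00), with 1.47 in replicate 1 and 1.32 in replicate 2. Among all 5478 protein-coding genes called in both, it was 1.98 times (quartiles 1.22 and 3.05). No test of this difference was made. The bodies of the members were shorter, with a median of 2636 bp over all members against 17339 bp. In the input the pooled density at the start was 0.830 and 0.958 times that of the body in these members and 0.756 and 0.946 times it in all such genes.

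The members varied widely in this ratio. It was highest in Rps2 (4.57), Rps27 (4.02), Rpl36a (3.88) and Rpl7 (3.78), and lowest in Rpl32 (0.21), Rpl38 (0.46), Rpl14 (0.48) and Rpl35 (0.50). These members were chosen after their values had been seen. The annotated start of Rpl35 lay 493 bp from its RefSeq start, and Rpl32 had no RefSeq promoter to compare with. The part of this in their ratios was not tested. The libraries differed over 1.5-fold in Rps27 (6.23 and 2.88, on 2 and 7 body reads), Rpl38 (0.367 and 0.558), Rpl14 (0.263 and 0.728) and Rpl35 (0.751 and 0.248). In Rps2 57.5% of the body and 83.8% of the start window were unique, and the part of this in its ratio was not tested. Some members were divided into 10 sections of equal length. In Rpl3 section 1 stood at 45.0 RPKM in both Pol II libraries and section 10 at 6.93 and 6.44 RPKM. The input of Rpl3 fell from 1.13 to 0.243 RPKM in replicate 1, on 14 and 3 reads, and was 0.880 RPKM in both sections in replicate 2. Rpl32 had the opposite course, with 2.0 and 5.58 RPKM in section 1 and 36.1 and 43.5 RPKM in section 8. The input of Rpl32 was 0.140 and 0.127 RPKM in section 1, on 1 read in each library, and 0.842 and 1.78 RPKM in section 8, so that section 1 was also low in the input. In Rpl24, whose model extends over 14379 bp, the density fell from 11.8 and 9.32 RPKM in section 5 to 0.452 and 1.51 RPKM in section 10.

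Pol II reads were also found past the ends of the members. In the 2 kb after the annotated end the density was 1.4 times that of the body (median of the 77 members, quartiles 1.11 and 1.78), and 65 of the 77 (84.4%) exceeded 1. For the 5478 genes the median was 1.26 and 3668 of them exceeded 1, a smaller share. No test of this difference was made. With the densities of the genes summed before division the ratios lay closer, at 1.35 in both Pol II libraries for the members. For the 5478 genes they were 1.313 in replicate 1 and 1.302 in replicate 2. The mean over the members was highest in the bin centred 550 bp past the end in replicate 1, at 1.06 RPM, and in the bin centred 750 bp past it in replicate 2, at 0.988 RPM. In the input the summed density of the members past the end was 1.06 and 1.03 times that of their bodies. Summed over the 81 members, Pol II reads in these 2 kb were 10.7 times the input of the same number in both replicates, against 2.99 and 2.93 times for all protein-coding genes. Neighbouring genes within these 2 kb were not left out, and their part in these values was not tested.

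Other genes of the translation machinery had lower median levels over the gene than the 5.83 RPKM of the members. At the start, however, the translation factors listed below had a median log2 ratio of 3.65, against 3.53 for the members. No test of these differences was made. The 76 mitochondrial ribosomal protein genes, whose products form the ribosome of mitochondria, had a median of 1.52 RPKM, and 66 of 76 passed the Pol II test at the start and 57 of 75 in the body, with median log2 ratios of 2.44 and 1.26. At the start Mrps12 had the largest log2 ratio of these (3.96) and Mrpl44 the smallest (0.02). Of 16 translation factors and other genes with TOP mRNAs, 15 passed at the start and 16 in the body, with a median of 3.06 RPKM. Their median log2 ratios were 3.65 at the start and 2.33 in the body. Among these, Eef1a1, which brings the tRNA to the ribosome, had a mean of 17.3 RPKM over both Pol II libraries, and Eef2, the translocase, one of 12.1 RPKM. Eif3f did not pass at the start (log2 0.95, adjusted p = 0.284). Of 16 ribosome biogenesis genes 13 passed at the start and 14 in the body, with a median of 1.74 RPKM and median log2 ratios of 2.65 and 1.37. Their largest log2 ratio at the start was that of Nop56, a core protein of snoRNA particles (5.25), and the smallest that of Polr1b, a subunit of RNA polymerase I (0.88).

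Sox6 was compared with the same input libraries, so the ratios of Sox6 and Pol II to input are not independent of each other. At the start windows, no member was called in either direction, against 0.394% of the 18762 genes tested higher and none lower. With limma-voom, 9 of the 80 members tested had an unadjusted p under 0.05, 6 higher and 3 lower, and the smallest adjusted p was 0.237. Of all genes tested, 12.2% were higher and 0.837% lower at this unadjusted p, against 7.5% and 3.75% of the members. With limma with a trend 1 member (1.25%) was called, against 2.20% of all genes. The windows held few Sox6 reads, with a median of 2 in replicate 1 and 1 in replicate 2 and at most 5 in either, so differences in single genes were hardly detectable at this depth, and the median SE of the log2 ratio was 0.80. Without Sox6 replicate 1, 5 of 77 members (6.49%) and 809 of 18249 genes (4.43%) were higher, in a fit where the spread comes from the 2 inputs alone and the single Sox6 library is assumed to vary like them.

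Summed over the members, the Sox6 start windows gave a more precise value. They held 143 reads in replicate 1 and 113 in replicate 2, which was 1.07 times (95% interval 0.893 to 1.28) and 1.44 times (1.17 to 1.74) the input of the same number. For the other protein-coding genes the same ratios were 1.31 and 1.56. In replicate 1 the ratio of the members lay below that of other genes and its interval did not reach it, and in replicate 2 the interval included it. The median log2 ratio was 0.49 for the members and 0.66 for all genes, with centring on the median window they were -0.16 and 0.03, and with an equal pseudocount in RPM they were 0.06 and 0.05. The lower Sox6 library exceeded the higher input library in 18 of 81 members, against 23.0% of all genes.

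The largest Sox6 ratios at the start were those of Rps13 (log2 2.29, adjusted p = 0.280), Rpl36al (log2 2.23, adjusted p = 0.313) and Rpl14 (log2 1.94, adjusted p = 0.351). Rps13 had 3 Sox6 reads in each replicate, or 1.0 and 2.04 RPM, against 0.273 and 0.330 RPM in the input. The smallest were those of Rps26 (log2 -2.02, adjusted p = 0.237), Rpl23a (log2 -1.85, adjusted p = 0.296) and Rps28 (log2 -1.55, adjusted p = 0.362). Rps26 had 0 and 0.681 RPM in Sox6 against 1.59 and 1.77 RPM in the input, and these were the highest input values of any member.

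**Figure D4:**
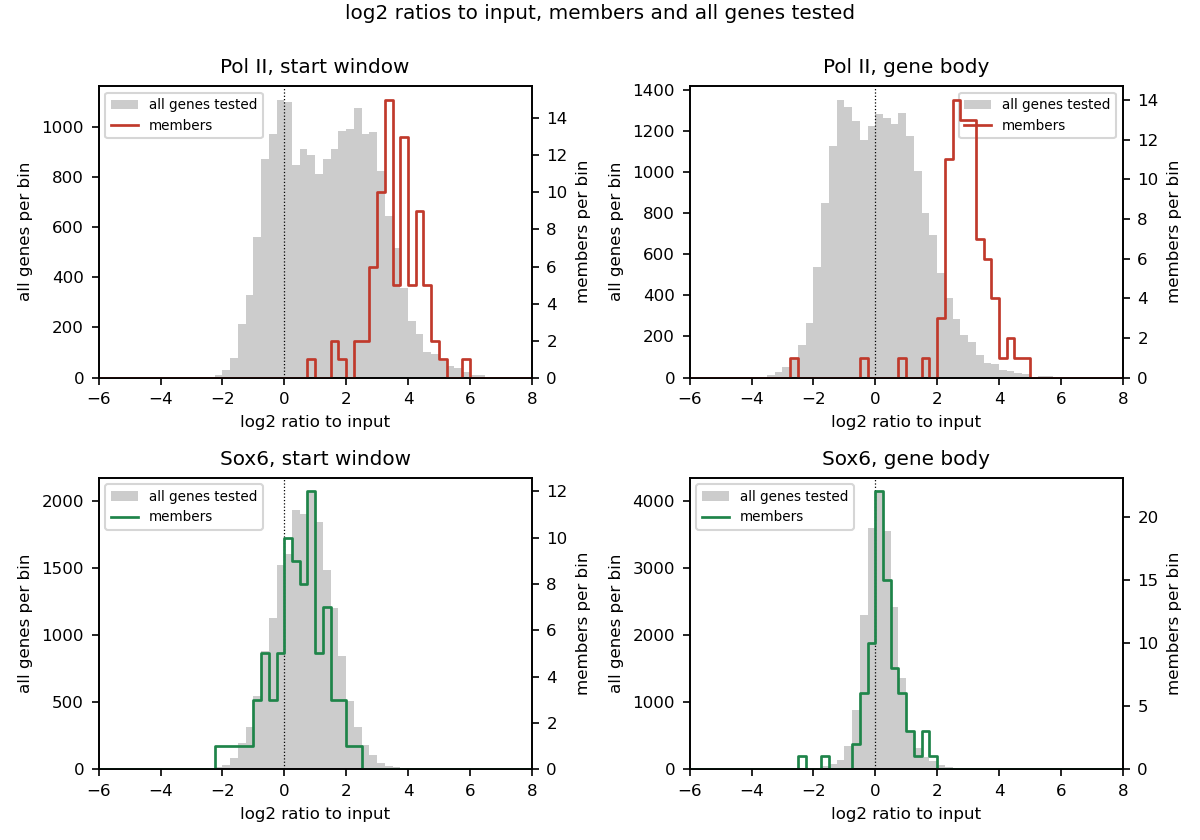
Log2 ratio to input of all genes tested (grey, left axis) and of the members (line, right axis) for Pol II and Sox6 at start windows and in gene bodies. The members sit at the right of the Pol II distributions, with medians of 3.53 and 2.85, and within those of Sox6, with medians of 0.49 and 0.22.

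In the gene bodies, 4 of the 79 members tested were higher in Sox6 than in input and 1 was lower, against 8.07% and 1.94% of the 20164 genes tested. With centring on the median window the split of all genes was 363 higher and 699 lower in place of 1627 and 391, and no member was called. Rpl32 had 28 and 8 Sox6 reads, or 3.42 and 1.99 RPKM, against 1.21 and 1.29 RPKM in the input (log2 1.22, SE 0.34, adjusted p = 0.0157). It was also the member with the highest Pol II, and its Pol II level in the body was 26.1 and 31.7 RPKM. Rpl7a, a protein of the large subunit whose gene hosts 4 snoRNAs, had 1.79 and 1.66 RPKM against 0.443 and 0.703 RPKM (log2 1.69, SE 0.48, adjusted p = 0.0177). Rps27a, which is made as a fusion with ubiquitin, had 2.28 and 1.16 RPKM against 0.542 and 0.702 RPKM (log2 1.60, SE 0.51, adjusted p = 0.0352). Rps2 had 6 and 2 reads, or 1.48 and 0.999 RPKM, against 0.467 and 0.303 RPKM (log2 1.90, SE 0.63, adjusted p = 0.0448).

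Rps16 was the member called lower (adjusted p = 0.0448, limma-voom). It had no Sox6 read in its body in either library, which allows up to 0.651 and 1.32 RPKM, against 0.855 and 0.828 RPKM in the input. The limit of replicate 2 lies above the input, so its count does not by itself show a lower level. Rpl39, with 1 and 0 Sox6 reads in the body (log2 -1.72, adjusted p = 0.174), and Rps27, with none in either library (log2 -0.70, adjusted p = 0.675), did not pass. Of the alternatives to the main fit, 4 of 19 did not keep the call of Rpl32, 6 of 19 that of Rpl7a, 7 of 19 that of Rps27a, 10 of 19 that of Rps16 and 12 of 18 that of Rps2. Without Sox6 replicate 1 none of the members was called higher in the body and without Sox6 replicate 2 it was 1 (1.27%), against 4.15% and 1.38% of all genes. Summed over the members, Sox6 reads in the bodies were 1.21 times (95% interval 1.11 to 1.32) and 1.22 times (1.09 to 1.37) the input of the same number, against 1.01 and 1.06 times for the other protein-coding genes. Gene by gene the members stood less apart, with a median log2 ratio of 0.22 against 0.16 for all genes tested. With the GC correction both medians were 0.19, and with an equal pseudocount in RPM they were 0.07 and 0.09. In the 2 kb past the ends, summed Sox6 reads of the members were 1.37 times (95% interval 1.23 to 1.51) and 1.47 times (1.29 to 1.68) the input, against 1.19 and 1.27 times for all protein-coding genes. The sums of Pol II were also higher there, and the part of this in the Sox6 values was not tested. Of the other translation lists, 1 of 75 mitochondrial ribosomal proteins, 1 of 16 translation factors and 1 of 16 biogenesis genes were higher in Sox6 in the body and none was lower.

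No member had a Sox6 peak of the common list within 20 kb (0 of 81, exact 95% interval up to 4.45%), against 4.37% of protein-coding genes. The search took in the gene and 20 kb to either side, so it covered less sequence for the members, which are short. The part of gene length in this share and in those below was not tested. The common list holds 1066 peaks that were found in both Sox6 replicates, and the lists of replicate 1 and replicate 2 hold 2888 and 1734. Of the members, 2 had a peak of the list of replicate 1 within 20 kb and 2 one of the list of replicate 2, against 9.84% and 6.78% of protein-coding genes. None of these 4 peaks had a member as its nearest gene. The peak near Rpl31 lay in Tbc1d8, that near Rps21 in Cables2, that near Rpl32 in Cand2 and that near Rpl27a between genes, closest to Trim66.

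The single-replicate peaks differed in how both libraries covered them. The peak at chr1:39437852-39437951, 9148 bp past the end of Rpl31, had 9 and 4 Sox6 reads in a window of 450 bp around its centre, or 3.01 and 2.72 RPM, against 0.319 and 0.536 RPM in the input. At chr2:179997212-179997371, 4141 bp past the end of Rps21, the values were 1.34 and 3.40 RPM against 0.319 and 0.454 RPM. Both peaks were on the list of replicate 1, so an excess in that library was part of the call. In replicate 2 both also lay above both inputs. At chr7:116654412-116654471, 8220 bp before Rpl27a, there was no read in Sox6 replicate 1 and 5.45 RPM in replicate 2, on 8 reads, against 0.182 and 0.330 RPM. At chr6:115742472-115742511, 13032 bp past the end of Rpl32, Sox6 had 1.67 and 2.04 RPM against 0.455 and 0.577 RPM, and Pol II stood at 2.60 and 5.07 RPM. The peaks near Rpl27a and Rpl32 were on the list of replicate 2, and at the latter replicate 1 also lay above both inputs.

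Exons of the members carried fewer input reads than their introns. Summed over the members, the input density was 0.356 and 0.478 RPKM in exons and 0.722 and 0.750 RPKM in introns, a ratio of 0.493 in replicate 1 and 0.637 in replicate 2. For all protein-coding genes the ratios were 0.923 and 1.01. The genome sequence differed in the same way: 61.2% of the exon bases of the members began a 36-base word that occurs once in the genome against 96.8% of their intron bases. Counted per unique base, the input ratio was 0.780 and 1.01. Pol II ratios of exon to intron were 0.894 and 0.773 per base and 1.41 and 1.22 per unique base, against 1.82 per base in both libraries for all protein-coding genes. Sox6 ratios were 0.511 and 0.618 per base and 0.808 and 0.977 per unique base, against 1.14 and 1.29 per base for all protein-coding genes.

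The exons least often unique were those of Rps6 (23.9%), the phosphorylated protein of the small subunit, Rpl29 (25.1%) and Rps2 (29.4%), whereas all exon bases of Rpl3l were unique. Pseudogenes named after a member were annotated for 51 members, 162 in all. In the 40 members with exon uniqueness below the median, the median input density in exons was 0.198 and 0.328 RPKM, and in the other 40 members with introns it was 0.362 and 0.517 RPKM. The start windows were more often unique than the exons, with 93.9% of bases unique over all members and the lowest value, 61.7%, in Rps29. Of Rps2, 60.2% of the gene was unique, and counted per unique base its level was 18.4 RPKM, the third of the members after Rpl32 with 28.1 and Rpl3 with 21.7 RPKM.

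**Figure D5:**
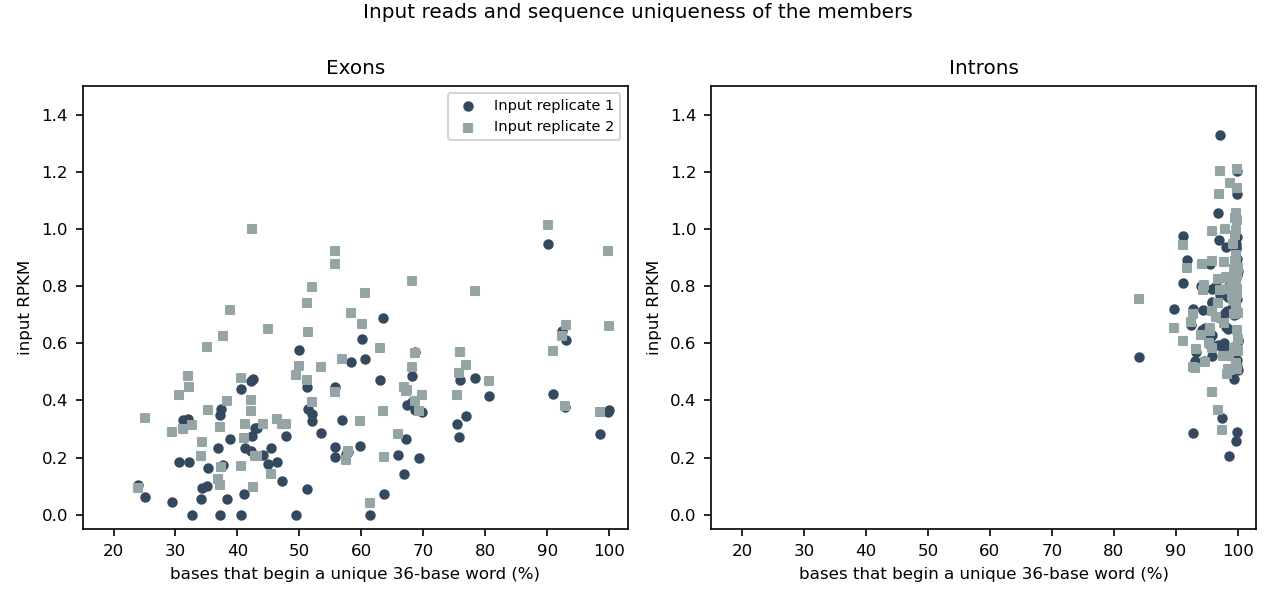
Input RPKM in the exons (left) and introns (right) of each member against the percentage of bases that begin a 36-base word found once in the genome, one point for each input library. Exons range from 23.9% to 100% unique and introns from 84% to 100%, and exons with little unique sequence carry few input reads.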

How the data were processed

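The authors aligned single-end Illumina Genome Analyzer II reads with Bowtie 0.12.5 at default parameters to NCBI Build 37 and described the reads as uniquely mapped. The deposited read files hold positions only, with no counts or normalization. The authors called peaks with SISSRs for each library against input, and joined the Sox6 lists into the common list. The deposited Pol II peak files also hold an unnamed score, taken from its values to be a fold ratio over input, which was not used.

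Genes were those of GENCODE vM1 matched by symbol to a RefSeq transcript. GENCODE vM1 does not mark RefSeq transcripts, so the longest model starting within 200 bp of a RefSeq start was taken, otherwise the longest model. The 5′ end of each read placed it in the start window (500 bp to either side of the start) or the body (500 bp past it to the gene end, at least 200 bp). Windows with at least 10 reads over 4 libraries entered limma-voom (limma 3.58.1 in R 4.3.3, 0.5 reads added, all mapped reads as library size, Benjamini-Hochberg threshold 0.05), fitted on 2 ChIP and 2 input libraries across all genes and tested on simulated data. Versions were pandas 2.3.3, Python 3.11.15, scipy 1.17.1, numpy 2.4.6, matplotlib 3.10.9 and numba 0.67.0. The depth of 1468604 to 2985437 reads per ChIP library limits what can be said of single genes. Intervals are exact binomial (Clopper-Pearson). Those of summed reads, like limits from a count of 0, cover counting error only. Those of peak shares treat the members as independent draws, although all members share the same libraries, and do not cover the spread between libraries. Alternatives tried were other scalings, pseudocounts, filters, windows, gene models, a GC correction, a replicate block and leaving out each library.

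Named members were the highest and lowest by Pol II level and by each ratio, those with a Sox6 peak, those that failed the Pol II test, the paralog pairs, the stalk proteins and Rpsa. The members and gene lists were chosen with earlier results of these data known. Values of a few genes that this rule would name are not reported here.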

Additional observations from a re-analysis of the deposited data

How the results depend on the processing

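Of 102 recomputed counts and medians that answer a comparison, 80 kept their direction and stayed near the main value and 22 moved. Members called higher at Pol II starts ranged from 77 to 78 and in bodies from 73 to 76 when 1 library was left out, where a lone library was assumed to vary like the other group. For Sox6 these counts ranged from 0 to 5 at starts and from 0 to 5 in bodies. In these fits the gap of the members' median log2 ratio over that of all genes was 1.69 to 2.18 at Pol II starts. It was 2.66 to 2.84 in Pol II bodies. For Sox6 the gap was -0.14 to -0.02 at starts and 0.059 to 0.29 in bodies. At Sox6 starts limma with a trend called 1 member. In Sox6 bodies, where the main count was 4, the trend gave 0 (5.57% of all genes), an equal pseudocount in RPM 1 (1.27% of members, 5.78% of all genes), no filter on low counts 7 (8.64%, 11.7%), centring 0 (1.80% of all genes), the GC correction 1 (1.27%, 2.14%) and the whole gene 2 (2.50%, 7.58%). Over all genes, Sox6 calls at starts (74 in the main fit) ranged from 0 to 809, the latter without Sox6 replicate 1. In Sox6 bodies higher calls (1627) ranged from 278 without Sox6 replicate 2 to 3095 with the replicate block, with 834 without Sox6 replicate 1 and 2880 without Input replicate 2, and lower calls (391) from 0 to 1039. Higher calls at Pol II starts (8492) ranged from 3404 to 10709 and lower ones (203) from 0 to 4299, and lower calls in Pol II bodies (4854) from 2213 without Pol II replicate 2 to 6454.

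The methods name an input for each ChIP experiment without giving numbers, and no label ties a number to a shared experiment or day. Deviations of same-numbered libraries correlated at 0.01, -0.02, 0.04 and 0.04. Many windows held few ChIP reads, and counting error can hide a shared deviation, so these values cannot decide on pairing. The main fit did not treat the libraries as pairs. With the replicate block, 78 and 77 members were higher in Pol II at starts and in bodies (97.5% and 96.2%, against 45.3% and 38.6% of all genes). In Sox6 none was higher at starts (0.336% of all genes) and 7 in bodies (8.86%, against 15.3% of all genes). With the block and GC correction together the counts were 80, 77, 0 and 4. These were 100%, 96.2%, 0% and 5.06% of members, against 46.3%, 42.1%, 0.213% and 9.92% of all genes.

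Common Sox6 peaks lay within 50 kb of 4 members (4.94%, against 7.14% of protein-coding genes). The list of either replicate gave 2 within 20 kb. Without 1 replicate, members with a Pol II peak at the start ranged from 55 to 64. The median Pol II level, 5.83 RPKM, was 6.81 per unique base, 5.21 with input subtracted, and from 5.83 to 6.06 in single libraries. The start to body ratio, 1.44, was 1.58 divided by that of input and from 1.32 to 1.47 in single libraries. The exon to intron ratio of input, 0.567, was 0.896 per unique word and from 0.493 to 0.637 in single libraries. Members with a pyrimidine run over the start, 18 of 61 at RefSeq starts, were 9 of 81 at the most common GENCODE starts, and 41 of 61 with a run of at least 8 within 30 bases, a limit chosen after seeing the data.

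Centring reversed the median Sox6 ratio at starts (-0.16) and the Pol II start ratios of Rpl35 (-0.041), Rpl39l (-0.60) and Rpl3l (-0.11). It also moved the median of all genes at starts, from 1.42 to -0.17 in Pol II and from 0.66 to 0.03 in Sox6. These changes of sign are thus not particular to the named genes. The Pol II body ratio of Rpl3l reversed to 0.00090 with library sizes from reads outside peaks, that of Rpl36al to -0.34 without Pol II replicate 2 (1.99 without replicate 1), and the Sox6 body ratio of Rps27 to 0.22 with 1 read added. The cause was not tested. Among 693 values of named genes, 49 lost and 10 gained a call. The alternative of members without a neighbouring start and that of the longest GENCODE models were added after seeing the data. At Pol II starts they gave 65 of 67 and 75 of 80 members. Of all genes, 45.5% were higher in the main fit and 45.2% with the longest GENCODE models.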
